A study of Rattus norvegicus with 4 samples.

Results

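Between Sprague-Dawley rats (SDR), heterozygous Hirosaki hairless rats (HHR) and homozygous HHR, 120 genes of the lactating mammary gland changed in the same direction at both steps, out of 11122 genes that could be followed and 14217 genes with a symbol on the array. The members were chosen by their values. Step 1 is the heterozygous minus the SDR value and step 2 the homozygous minus the heterozygous value, both in log2 signal, and a graded gene is one with both steps at 0.5 or more (1.41-fold) in 1 direction. At both steps 72 genes were higher (0.647% of genes) and 48 genes were lower (0.432%). Because the values chose the genes, their steps are given as a description. No difference has a replicate error or a test, since each group was 1 array.

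SDR are a common outbred laboratory strain. HHR are a mutant strain with scant hair that arose from SDR. The labels name the heterozygous or homozygous state but no locus, and they give no age, litter or number of animals for an array. All 3 groups were sampled on day 1 of lactation, and 1 more array held SDR mammary gland at involution day 1, when the gland regresses because milk is no longer removed. At the start of lactation the alveolar cells take up glucose, fatty acids and amino acids and turn them into milk under prolactin and glucocorticoids. In involution the transcription factor Stat3 replaces Stat5 as the active factor, and early response, acute phase and protease genes are switched on. Where a gene follows the number of mutant alleles, a heterozygous animal is usually seen between both homozygous states, and the order of the arrays follows that number.

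The arrays had similar numbers of genes above the floor, a signal of 91.5 to which lower values were raised, with 10373 in SDR, 10368 in heterozygous HHR and 10425 in homozygous HHR. Casein and other milk protein genes, which define the lactating gland, were among the brightest, with Csn3 between 53588 and 60152. For the Gapdh control the signal near the 3′ end divided by that near the 5′ end, which is larger in degraded RNA, was 1.17 in SDR, 1.93 in heterozygous and 2.30 in homozygous HHR. This order is the order of the graded genes, and its part in their differences was not tested. For beta-actin this ratio was 4.60, 7.86 and 5.91, highest in the heterozygous array. Among 42 spiked-in control probe sets above the floor, 7 differed by 0.5 or more at step 1, 0 at step 2 and 0 were graded. All 7 were poly-A controls, which are added to the RNA before labelling, and their step 1 reached 0.63. All 24 poly-A controls were higher at step 1, with a median of 0.41, so they were higher as a set. The 18 hybridisation controls had a median step 1 of -0.01, and 0 of them reached 0.5. A single rise near 0.5 is thus within what poly-A controls showed at step 1, but a shared shift does not measure the scatter of single genes. The lowest step 1 of any control was -0.19, so the controls show this for rises only.

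Most changes over the 3 arrays were not graded. The heterozygous array lay outside the range of the other pair for far more genes than between them by 0.5 on both sides. At step 1 only, 928 genes were higher (8.34%) and 1019 lower (9.16%). At step 2 only, 869 genes were higher (7.81%) and 619 lower (5.57%). A further 876 genes were higher at step 1 and lower at step 2 (7.88%), and 705 genes lower and then higher (6.34%). Neither step reached 0.5 in 5986 genes (53.8%). Together 1581 genes moved in opposite directions (14.2%), 13.2 times as many as the 120 graded genes (1.08%). Both steps contain the heterozygous array, so any deviation of that array from its true level pushes the steps in opposite directions. Graded genes were not the brightest ones, at 1.33% and 1.44% of the genes in the lowest bins of mean signal and 0.899% and 0.647% in the highest, over 4 bins of equal size.

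**Figure D1:**
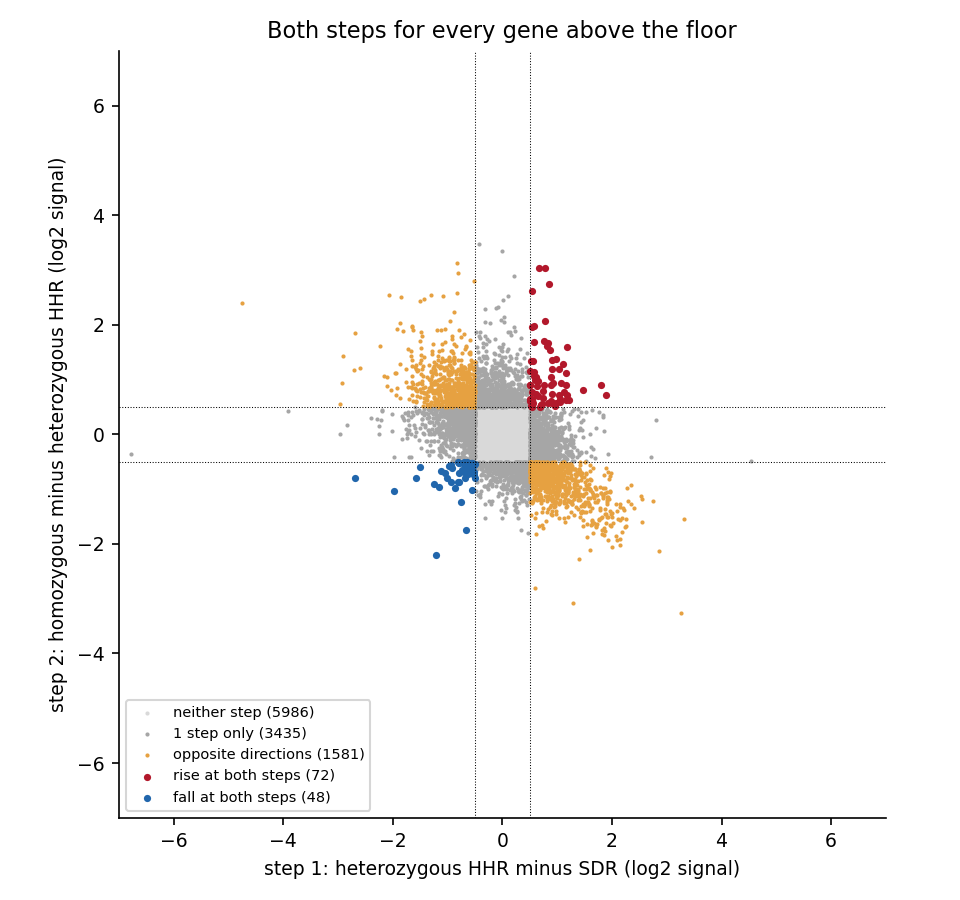
Each point is 1 gene, with step 1 (heterozygous minus SDR) on the x axis and step 2 (homozygous minus heterozygous) on the y axis in log2 signal, and dotted lines at 0.5. The 72 red and 48 blue graded genes fill the corners sparsely, whereas 1581 orange genes lie in the corners of opposite direction.

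**Figure D2:**
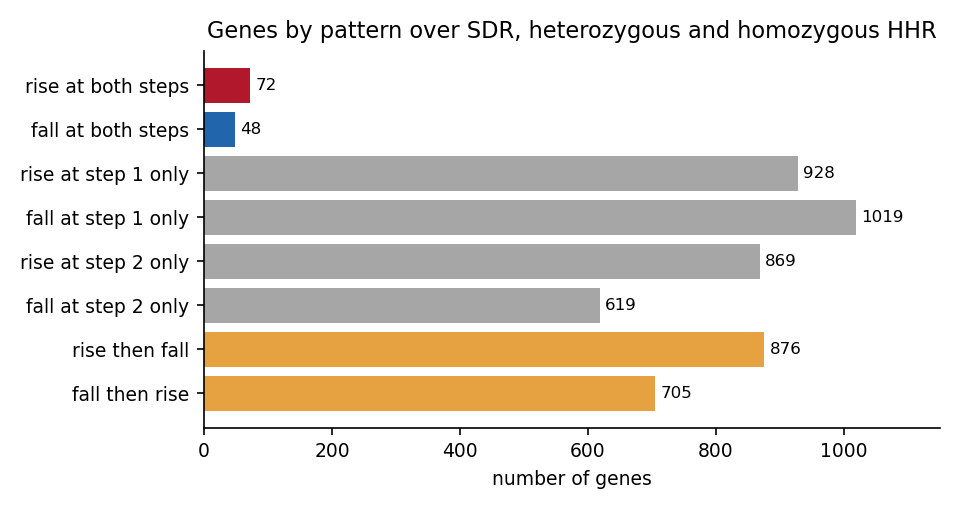
The bars give the number of genes in each of 8 patterns over the 3 lactation arrays, out of 11122 genes. The graded patterns hold 72 and 48 genes, and the other patterns between 619 and 1019.

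Seen from the end points, graded genes were a minority of the genes that separate homozygous HHR from SDR. Of 410 genes at least 2-fold higher in homozygous HHR (3.69%), 72 were graded, 172 differed at step 2 only and 135 at step 1 only. In 13 of the higher genes the heterozygous value lay below SDR by 0.5 or more, and in 18 above homozygous HHR by that much. Of 296 genes at least 2-fold lower (2.66%), 48 were graded, 171 differed at step 1 only and 58 at step 2 only, with 4 beyond SDR and 15 beyond homozygous HHR. Step 1 made up a median of 40.7% of the whole difference among the higher genes and 79.1% among the lower ones. Genes higher in homozygous HHR thus lay a little nearer SDR in the heterozygous array by this median, and lower genes clearly nearer homozygous HHR. These counts use the same arrays as the selection and are a description.

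**Figure D3:**
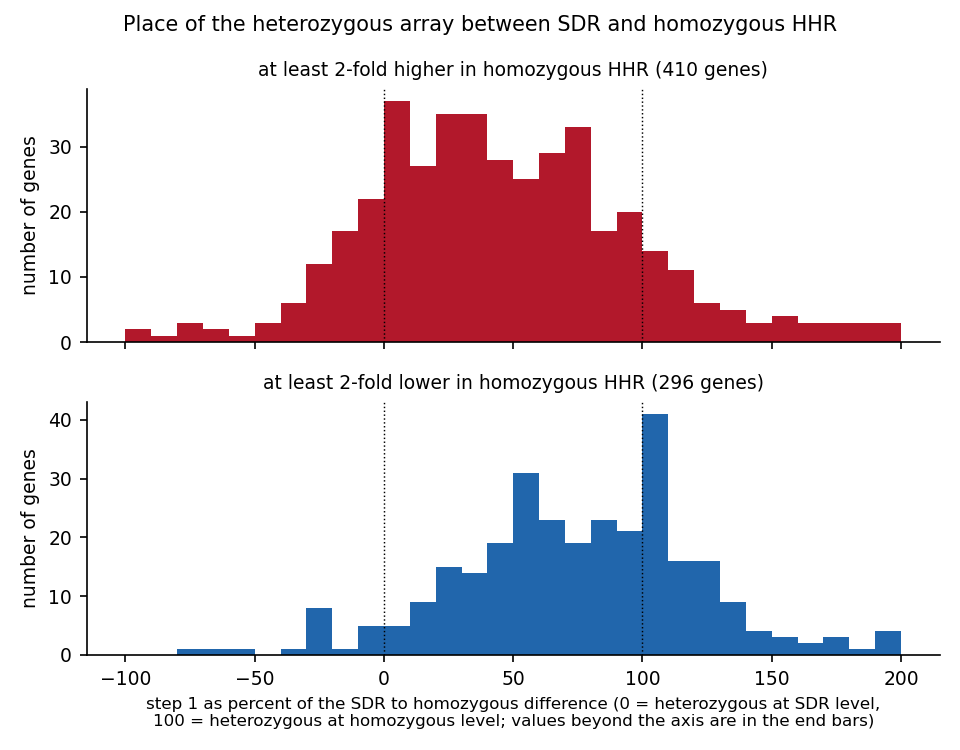
The histograms place the heterozygous array between SDR (0%) and homozygous HHR (100%) for 410 genes at least 2-fold higher (top) and 296 at least 2-fold lower (bottom) in homozygous HHR. The bar at 0% above includes 9 genes at the floor in SDR and heterozygous HHR, and the bar at 100% below includes 14 at the floor in both HHR arrays.

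Among the 72 genes higher at both steps, the whole difference ran from 2.06-fold to 14.0-fold with a median of 3.21-fold. In 40 of them step 1 was between 40% and 60% of the whole, in 21 step 2 was the larger part and in 11 step 1 was. The 48 lower genes spanned 2.05-fold to 11.1-fold with a median of 2.59-fold, and 34 were even by the same measure. By construction, a threshold at both steps leaves no graded gene under 2-fold in all. It also keeps the share of step 1 near the middle, most tightly where the whole difference is small. The counts of even genes are thus largely set by the selection. Whether the steps were more even than the selection requires was not tested. Only 4 higher genes (Myc, Fbn2, Sftpd and Zfp703, the last at the floor in SDR) and 2 lower genes (C2cd4b and Nr1d1) had 2-fold at both steps.

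Immediate early genes, which respond quickly to a stimulus without new protein, held 4 graded members of 29 measured (13.8%, beside 1.08% of all genes). This list and those below were chosen with results of these data known. Nothing is read from their shares of graded genes. Myc, a transcription factor of growth, had signals of 370.8 in SDR, 842 in heterozygous and 2536 in homozygous HHR, with steps of 1.18 and 1.59. Fos, a subunit of the AP-1 transcription factor, had 402, 789 and 2047, with steps of 0.97 and 1.38. Ccn2, connective tissue growth factor, had 428, 732.5 and 5983, 14.0-fold in all, with steps of 0.78 and 3.03, so that step 1 made up 20.4% of the log2 difference. Dusp5, a phosphatase that acts on nuclear Erk kinase, went the other way with 1359, 708 and 389. The other members did not follow this grading. In 8 genes, Jund, Junb, Klf4, Klf6, Klf10, Atf3, Ccn1 and Maff, the signal was higher at step 2 only (beside 7.81% of all genes). Jun, the partner of Fos in AP-1, had 852.5, 593 and 4106, and with Dusp1, Ier3 and Ier5 was lower in heterozygous HHR before it was higher. Over the list the median step 1 was -0.07 and the median step 2 was 0.62, against 0 for both over all genes.

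Of the 24 measured genes of Stat3 signalling and early involution, 2 were graded (8.33%, beside 1.08% of all genes). Stat3 had 1055, 1621 and 3359 and Cebpd, a transcription factor that Stat3 induces, had 559, 816 and 4992. Their grading at step 1 rests on 1 probe set each. The second Stat3 probe set had steps of -0.12 and 1.40, and the 2 further Cebpd probe sets had step 1 at -0.25 and 0. Averaged over their probe sets, neither gene was graded. In 8 members of the list the heterozygous array was the lowest by 0.5 or more at both steps (beside 6.34% of all genes). These were Clu, Ctsd, Ctsl, Fgl2, Igfbp5, Lcn2, Pik3r1 and Tgfb3. Tgfb3, a growth factor of the involuting gland, had 4047, 2099 and 8809. The list had medians of -0.42 at step 1 and 0.55 at step 2.

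Among 21 measured acute phase and inflammation genes 1 was graded (4.76%, beside 1.08% of all genes). This was the neutrophil chemokine Cxcl1, with SDR at the floor, 145 in heterozygous and 1188 in homozygous HHR, at least 13.0-fold in all. Of the others 7 were higher at step 2 only (beside 7.81% of all genes), such as the bacterial sensor Tlr2 with 1042, 1218 and 4489. A further 3 were higher at step 1 only (beside 8.34%), such as the calcium-binding S100a8. The 250 bases before the Cxcl1 start (RefSeq, GRCr8, chr14:17479322-17479571, minus strand) are shown because they held the NF-kB motif, found in 0.4% of 9260 such windows, and the glucocorticoid response element, found in 1.58%. Both are in capitals, 84 and 98 bases before the start.
Cxcl1: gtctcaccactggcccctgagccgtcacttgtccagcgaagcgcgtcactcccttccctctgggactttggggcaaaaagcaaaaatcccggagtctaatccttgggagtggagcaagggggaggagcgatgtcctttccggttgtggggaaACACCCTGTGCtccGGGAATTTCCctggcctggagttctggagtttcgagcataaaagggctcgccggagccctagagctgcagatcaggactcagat

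Metallothionein Mt2A, which binds zinc and copper and is induced by glucocorticoids, had 358, 664 and 1368, and its steps of 0.89 and 1.04 were nearly equal. It was 1 of 2 graded genes, with Cebpd, among 14 measured glucocorticoid targets (14.3%, beside 1.08% of all genes). Pdk4, an inhibitor of pyruvate dehydrogenase on the same list, had 457, 529 and 3914, a difference at step 2 only. The Mt2A window (RefSeq, GRCr8, chr19:10838709-10838958, minus strand) is printed as the only one among the 5 AP-1 matches of higher genes whose gene the lists hold. Capitals mark, from the 5′ end, the AP-1 motif, an E-box, a CCAAT box and a TATA box, 237, 202, 45 and 31 bases before the start.
Mt2A: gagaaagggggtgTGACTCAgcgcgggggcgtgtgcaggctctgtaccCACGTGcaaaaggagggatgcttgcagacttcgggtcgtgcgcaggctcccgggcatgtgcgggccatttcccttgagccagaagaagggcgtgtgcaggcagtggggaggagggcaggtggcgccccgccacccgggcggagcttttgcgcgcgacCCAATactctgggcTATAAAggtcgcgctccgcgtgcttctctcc

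Sftpd, surfactant protein D, a secreted lectin of innate defence, had 531, 1148 and 2799, 5.27-fold in all. Muc4, a mucin of the epithelial surface, had 601, 1143 and 2179, with both steps at 0.93. It was the only graded gene among 11 milk and milk-associated protein genes (9.09%, beside 1.08% of all genes). Of these the caseins Csn1s1, Csn2 and Csn3 differed by less than 0.3 at each step. Dmkn, dermokine, a secreted protein of stratified epithelia, had 330.3, 620 and 1418. Fbn2, fibrillin 2, a microfibril protein, had 102, 229 and 501. Spdef, an Ets factor of secretory epithelium, had 139.5, 312 and 582. These signals were above the floor in every lactation array, and each gene was lowest in SDR and highest in homozygous HHR.

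Other genes that led the higher group had the following values. The cytoskeletal linker Clip2 had 245, 460.3 and 1172. Xk, a membrane protein of red cells and other tissues, had 368, 678 and 1262. The transcription factor Creb5 had 96.8, 178 and 518, but 1 of its 4 further probe sets moved up at both steps. C9h6orf141 had 475, 1650 and 3078, with the larger log2 difference at step 1 (1.80 against 0.90), and its further probe set had steps of -0.13 and 0.67. Bik, a pro-apoptotic Bcl2 family member, had 114, 178 and 347. It was the only graded gene of 20 in apoptosis and survival (5%, beside 1.08% of all genes). Its smaller step was 0.39 with the floor added as a pseudocount and 0 with the floor at the 55th percentile, so the list then had no graded gene. At the floor in SDR were Card14, an NF-kB adaptor of epithelia (164 and 1101 in heterozygous and homozygous HHR), Zmynd15 (157 and 657) and the annexin Anxa8 (156 and 505). Their step 1 is a lower bound.

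Further members are named for their known roles, chosen after their values were seen. Genes of fuel metabolism included Angptl4, an inhibitor of lipoprotein lipase, with 1186, 1719 and 6684, Pck1, which makes phosphoenolpyruvate, with 1182, 1718 and 2663, and Pfkfb3, an activator of glycolysis, with 131, 197 and 628. Klf5, a zinc finger factor of epithelia, had 335, 590.1 and 1804. Gda, guanine deaminase, had 2005, 4510.2 and 6964. Wfdc2, a secreted protease inhibitor family protein, had 96.8, 360.3 and 591. Among these the larger step was the second for Angptl4, Pfkfb3, Klf5 and, by little, Pck1 (0.54 and 0.63), and the first for Gda and Wfdc2. A further Gda probe set turned that order, with 2290 in SDR, 2646 and 4646 and steps of 0.21 and 0.81. Pfkfb3 kept its pattern under 6 of the 9 settings with the 0.5 threshold. Not every graded gene of fuel metabolism was higher, as Fbp2, a fructose bisphosphatase, had 632, 364 and 254.

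Among the 48 lower genes, Cd36, which carries long-chain fatty acids into the cell, was the brightest, with 34685 in SDR, 15568 in heterozygous and 7958 in homozygous HHR. Its steps of -1.16 and -0.97 were close to even. Of 31 measured genes of milk fat synthesis it was the only graded one (3.23%, beside 1.08% of all genes). The lipoprotein lipase gene Lpl (42047, 37854 and 33165) and Fasn, fatty acid synthase (33682, 31008 and 27710), were also ordered but with every step under 0.2. The fatty acid binding protein Fabp4 and the lipogenic regulator Thrsp were lower at step 1 only, with Thrsp at 29683, 10763 and 12333.

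Membrane carriers and enzymes were among the graded lower genes. Slc28a3, a nucleoside transporter, had 6177, 961 and 555, most of its 11.1-fold difference at step 1. Slc19a2, a thiamine transporter, had 1606, 781 and 480.5. Phgdh, which starts the pathway to serine, had 3690.2, 2217 and 1407. It was the only graded gene among 26 measured genes of amino acid and unfolded protein stress (3.85%, beside 1.08% of all genes). C2cd4b, a C2 domain protein, had 7289, 3131 and 681, with steps of -1.22 and -2.20. Mest, an imprinted gene of the hydrolase family, had 1385, 583 and 312. Each of these genes was highest in SDR and lowest in homozygous HHR.

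Nr1d1, the Rev-erb alpha repressor of the circadian clock, had 788, 199.5 and 97.5, the last close to the floor. It was the only graded gene of 17 clock genes (5.88%, beside 1.08% of all genes). Per2 and Per3 were highest in the heterozygous array, Per2 with 281, 1061 and 509. Times of day of sampling are not given in the labels. Oxtr, the oxytocin receptor of myoepithelial cells, had 316, 146 and the floor. By contrast 10 of 15 myoepithelial markers were higher at step 1 only (beside 8.34% of all genes). An example was the basal keratin Krt5 with 2564, 6633 and 5448. Fewer cells of a type and less RNA per cell cannot be told apart in RNA of whole tissue. The lens galectin-like Grifin had 495, 285 and 155, Trim14, an antiviral adaptor, 689, 395 and 215, Rtn4ip1, a mitochondrial protein, 290, 168 and 102.5, and the ribosomal protein gene Rpl39 402, 247 and 152. In homozygous HHR Agps, which makes ether lipids, Frg1 and Pimreg were at the floor, from 359.8, 328 and 322 in SDR.

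Interferon response and antigen presentation genes had 30 measured members, of which 1 was graded (3.33%, beside 1.08% of all genes). This was Oas1a, a sensor of double-stranded RNA, with 265, 140.2 and the floor. Of the others 12 were lower at step 1 only (beside 9.16% of all genes) and 8 were lower and then higher (beside 6.34%). The median steps were -0.81 and 0.02. RT1-T24-3, a class I gene of the rat major histocompatibility complex, had 1030, 347 and 201. It was the graded one of 18 RT1 genes (5.56%, beside 1.08% of all genes). Of these 9 were lower at step 1 only (beside 9.16% of all genes). Another 3, RT1-Ba, RT1-A and RT1-T24-4, were higher at step 1 only (beside 8.34%). From SDR to homozygous HHR they were higher by 3.06, 1.82 and 1.73 in log2. RT1 genes are near-identical copies that probe sets may not separate, so their values are uncertain. The Oas1a window (RefSeq, GRCr8, chr12:41330216-41330465, plus strand) held 2 overlapping copies of the interferon-stimulated response element, a motif found in 2.61% of all windows. They start 41 and 35 bases before the start, and the other capitals mark a GAS motif, the site of Stat factors, and a CCAAT box on the opposite strand.
Oas1a: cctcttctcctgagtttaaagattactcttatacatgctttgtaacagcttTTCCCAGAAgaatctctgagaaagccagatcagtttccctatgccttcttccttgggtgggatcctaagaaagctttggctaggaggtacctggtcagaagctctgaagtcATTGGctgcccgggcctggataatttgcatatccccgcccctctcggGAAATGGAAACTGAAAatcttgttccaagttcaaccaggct

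**Figure D4:**
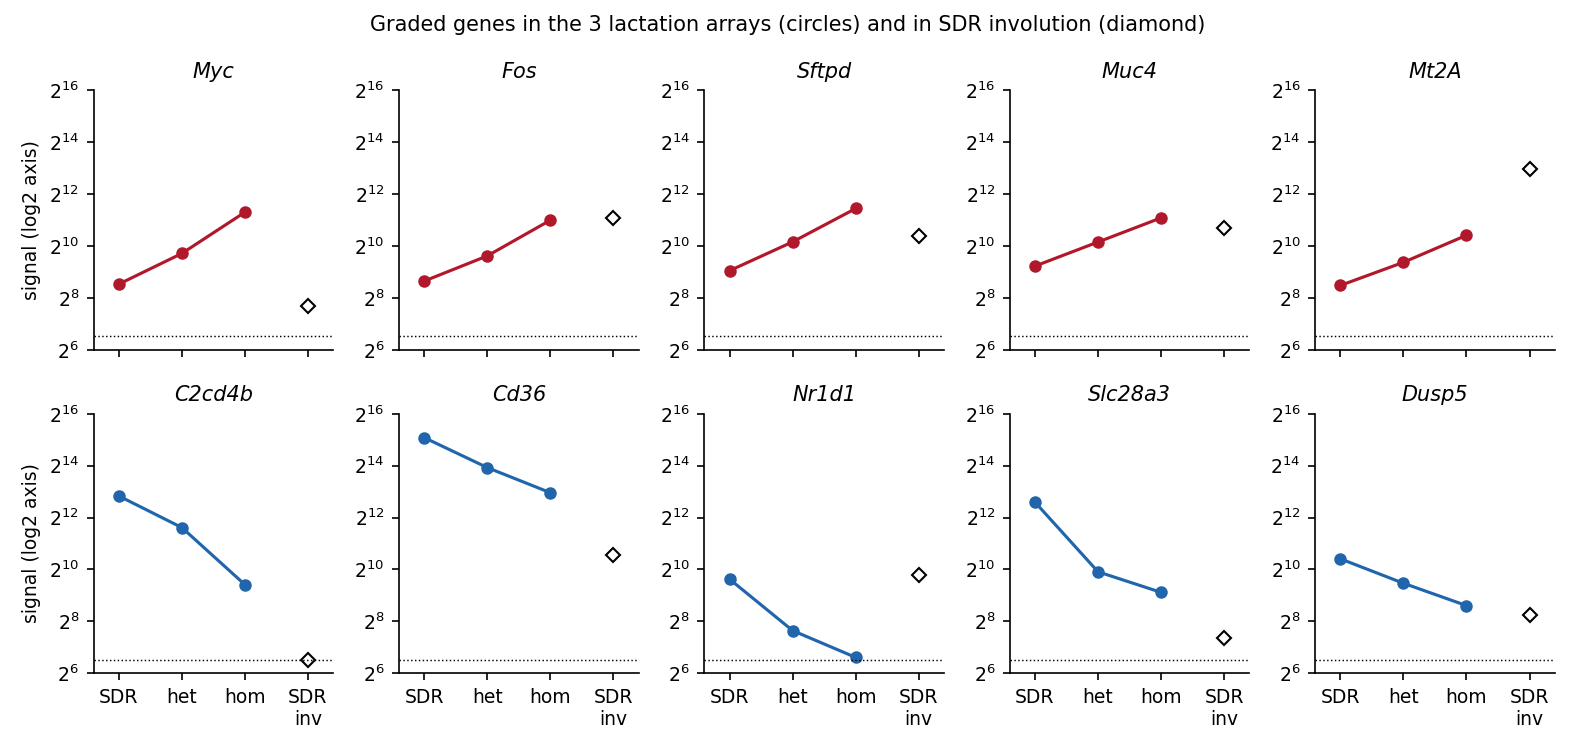
Signal on a log2 axis for 10 graded genes in SDR, heterozygous (het) and homozygous (hom) HHR at lactation, with SDR involution (inv) as an open diamond and the floor as a dotted line. The circles rise in the top row and fall in the bottom row. The diamond lies below all circles for Myc, C2cd4b, Cd36, Slc28a3 and Dusp5. It lies above all of them for Mt2A, Nr1d1 and, by little, Fos.

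Signals in SDR involution, which the selection of genes did not use apart from the floor and the choice of probe set, were on either side of the lactation arrays. For some higher genes involution was above homozygous HHR, as in Stat3 (10652 against 3359), Mt2A (8109 against 1368), Dmkn (9293 against 1418), Card14 (12657 against 1101), Angptl4 (25142 against 6684) and Bik (1772 against 347). For Fos (2188) and Cxcl1 (1046) it was close to homozygous HHR. Myc had 207 in involution, below its SDR lactation signal, and Spdef was at the floor. Among the lower genes Cd36 had 1511, Slc28a3 164.5, Mest 177 and C2cd4b was at the floor, all below homozygous HHR. Nr1d1 (893), RT1-T24-3 (2100) and Oas1a (617) were higher in involution than in any lactation array. A difference of involution from SDR lactation shares that array with step 1.

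Of 464 measured genes in any of 28 lists, 16 were graded (3.45%, beside 1.08% of all genes), 9 higher and 7 lower. The lists were chosen with results of these data known, so nothing is read from that share. No member was graded in 16 lists. The other 104 graded genes were in no list. Cell cycle genes stood out by the opposite pattern. Of 36 measured, 34 were higher at step 1 and lower at step 2, beside 7.88% of all genes. The cell cycle medians were 1.54 and -1.23. Markers of fibroblasts (medians -0.29 and 0.39), macrophages and neutrophils (-0.46 and 0.40) and luminal epithelium (-0.32 and 0.41) had steps of opposite sign. The summed signal of the fibroblast list was 122875 in SDR, 85799 in heterozygous and 120100 in homozygous HHR, and that of the macrophage and neutrophil list 30025, 18262 and 34969. None of the 16 luminal epithelial, 20 fibroblast, 13 endothelial, 15 adipocyte, 17 macrophage and neutrophil or 15 T cell markers was graded, and with 1.08% of all genes graded a count of 0 in lists of this size says nothing particular about them. Some marker sums did run in the graded order, but a sum can be set by its brightest genes. Adipocyte markers summed to 90756, 73638 and 67728 and T cell markers to 4518, 3180.1 and 3053, both highest in SDR. Median steps were 0.03 and -0.08 for adipocyte markers, unlike their sum, and -0.37 and 0 for T cell markers. Skeletal muscle markers (4 genes) summed to 6474, 8354.5 and 9844, highest in homozygous HHR. None of the 4 reached 0.5 at either step (medians 0.38 and -0.15). Type II keratins (8073, 13388 and 15105) and skin epidermis markers (686, 843.5 and 978) were also highest in homozygous HHR. Medians were 0.16 and 0.48 for the keratins and 0.26 and -0.32 for the skin markers. Endothelial markers (16322, 10155 and 11629) and red cell markers (15152, 4921 and 7349) were highest in SDR and lowest in heterozygous HHR. The 3 red cell markers had medians of -0.89 and -0.19. The part of such cells in the graded genes was not tested.

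**Figure D5:**
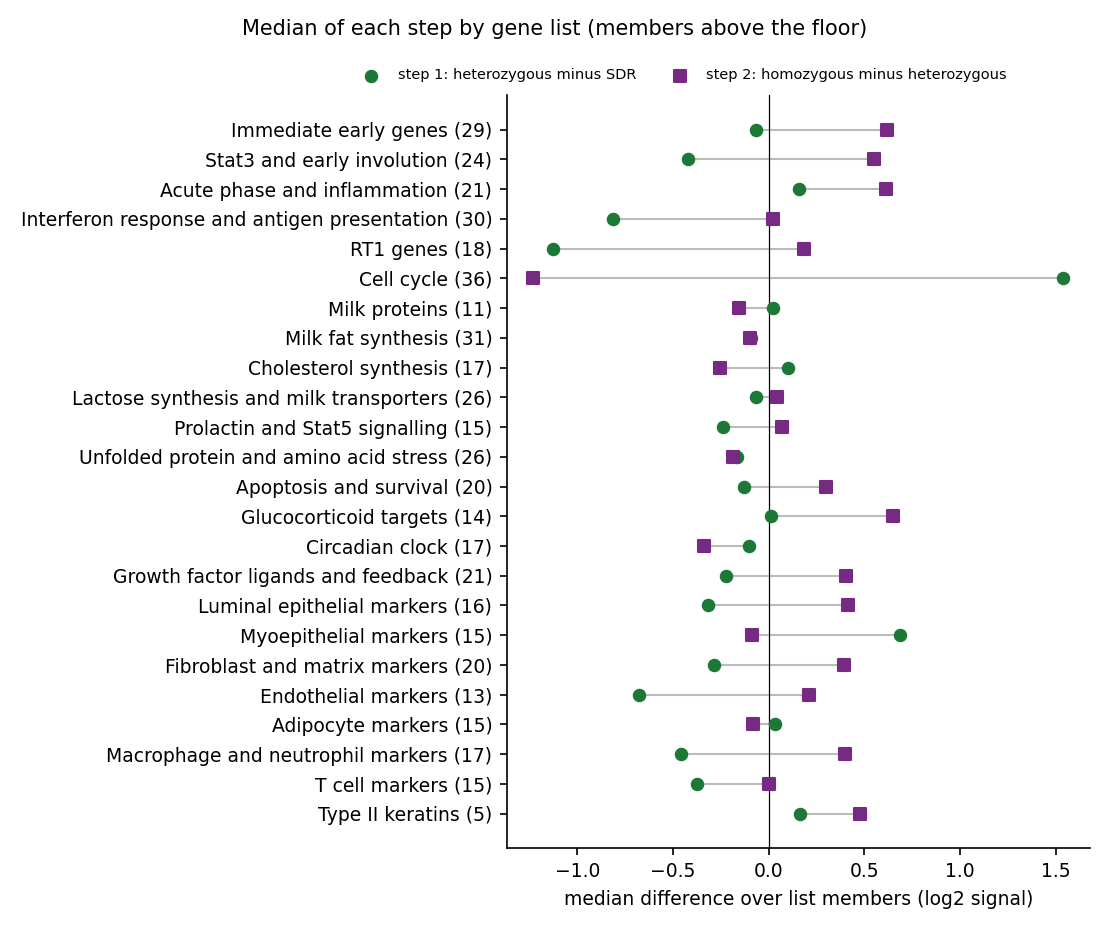
Circles give the median step 1 and squares the median step 2 over the measured members of each gene list with 5 or more measured genes (number in brackets), in log2 signal. Both medians lie at 0.15 or more on the same side of 0 in acute phase genes, type II keratins and, below 0, the unfolded protein list, and cell cycle genes span the widest gap, from 1.54 to -1.23.

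Genes with a change at 1 step only show the contrast with grading. At step 1 only, Zcchc7 had 307, 1107 and 1153, Mroh3 757.5, 2101 and 2027 and Bex1 312, 857 and 908. The T cell chemokine Cxcl9 had 3051, 391 and 391, the immunoglobulin gene Ighl2 951, 133 and 149 and the mast cell protease Cma1 622.5, 130.1 and 145. In all 6 the heterozygous value on these probe sets was near the homozygous one. At step 2 only, the small GTPase Rnd3 had 238.5, 256 and 1479, Anxa1, an annexin induced by glucocorticoids, 2335, 2345 and 12820.5 and Rnf122 119, 110.1 and 544. The oxysterol binding protein Osbpl1a had 883, 882.5 and 307, Rrp8 541, 529 and 202 and the dyskerin gene Dkc1 1186, 1249 and 492.5. On these probe sets the heterozygous value was near SDR. Further probe sets of Rnd3 and Osbpl1a disagreed on step 1. Of 2 further Rnd3 probe sets, 1 was higher at both steps (1.20 and 1.94) and the other at step 2 only (-0.18 and 1.90). Of 2 for Osbpl1a, 1 was lower at both steps (-1.01 and -1.24) and the other at step 2 only (0.14 and -1.67).

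The threshold divides a continuous range. Just inside it by their smaller step were Car4 (0.50 at step 1), Tbc1d9 (0.50) and Cep170 (0.50), and just outside were Scn7a (0.50 at step 2), Golt1b (0.50 at step 1) and Slc6a6 (0.49 at step 2). Of the 72 higher genes 33 and of the 48 lower genes 23 had a smaller step under 0.6. Further probe sets of the same genes, measured on the same RNA but not used for the selection, were less often graded. Of 33 further probe sets in 23 higher genes, 6 were higher by 0.5 at both steps and 12 had both steps above 0. Among all 4262 further probe sets on the array those shares were 0.516% and 10.7%. Of 12 in 10 lower genes, 1 was graded and 4 had both steps below 0, beside 1.71% and 20.6% of all.

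Promoter windows were found for 99 of the 120 graded genes and for 9260 of all genes followed. Of 58 higher genes 5 held the AP-1 motif TGANTCA (8.62%, beside 4.45% of all windows), 4 the GAS motif TTCNNNGAA (6.9%, beside 5.85%) and 21 a CCAAT box (36.2%, beside 35.6%). Of 41 lower genes 4 held AP-1 (9.76%), 3 GAS (7.32%) and 19 a CCAAT box (46.3%), and 7 held TATAAA (17.1%, beside 6.39%). The E-box CACGTG was in 4 higher and 2 lower genes (6.9% and 4.88%, beside 8.35%). The cyclic AMP response element was in 0 higher genes and 1 lower gene (2.96% of all windows) and the CHR element of cell cycle genes, TTTGAA, in 5 and 2 (930 of all windows). Muc4 was the 1 higher gene with the interferon-stimulated response element. All motifs were read on both strands and a match is only a match of letters.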

How the data were processed

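Mammary gland RNA was measured on 4 arrays, 1 a group. Per the labels' protocols, biotin-labelled cRNA was hybridised. Each deposited value is a MAS5 signal, a linear intensity per probe set, with MAS5 named per the submitters' processing notes and its version not given in the sources used here. The mean after trimming 2% at each end was 500.2 in every array, which shows the authors' scaling. Depth does not apply to arrays, and their number limits the precision.

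Of 31099 probe sets 57 were controls. The platform annotation gave 1 symbol for 20826, several for 436 and none for 9780, and 20758 had a gene identifier in a RefSeq table (GRCr8), used for names. Signals under the pooled 40th percentile of the 4 arrays (91.5) were raised to it before log2. A gene was its probe set with the highest mean log2 value, and genes above the floor in at least 1 lactation array were followed. Python 3.11.15 with pandas 2.3.3 was used, and the steps were checked on simulated data. Those data had steps well past the threshold, planted in bright genes with little noise. The check thus does not bear on calls near the floor or the threshold.

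The members, the 28 lists and the rules were chosen with earlier results of these data known. Named were the 12 genes per direction with the largest smaller step (above the floor, further probe sets in the same overall direction), the 4 brightest at the floor in 1 array, up to 6 graded members of a list, 3 genes on each side of the threshold, and 3 per pattern of 1 step with the other step under 0.2. Other genes were chosen after their values were seen. Alternatives were other scalings, floors, probe set choices and thresholds.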

Additional observations from a re-analysis of the deposited data

How the results depend on the processing

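With median centring, quantile normalization, the probe set without shared-probe suffix, genes above the floor in all 3 arrays, concordant further probe sets or the mean of all probe sets, all 8 counts of genes by pattern stayed within 1.5 times. The setting with concordant further probe sets drops only graded genes, so the counts of the other patterns could not change there. The remaining settings moved the graded counts. The floor at the 25th percentile gave 114 higher and 79 lower genes, the floor at the 55th percentile 44 and 27, and the floor added as a pseudocount 44 and 25. A step threshold of 0.3 gave 288 and 206 graded genes, with 1675 higher then lower and 1463 lower then higher. A threshold of 1 gave 4 and 2, with 188 and 94 in opposite directions, 306 higher and 355 lower at step 1 only, and 311 and 151 at step 2 only. Genes of opposite direction outnumbered graded genes under every setting, from 6.35 to 47 times. Which genes were graded also depended on the setting. Under the 9 settings that keep the 0.5 threshold, 21 of the 72 higher genes (among them Myc, Ccn2, Muc4, Mt2A and Sftpd) and 14 of the 48 lower genes (among them Cd36, C2cd4b, Slc28a3, Dusp5 and Phgdh) kept their pattern in all. Fos was lost with the mean of all probe sets, Nr1d1, Fbn2, Oxtr, Card14, Anxa8, Agps and Frg1 with the floor at the 55th percentile, and Cxcl1, Oas1a, Bik, Zmynd15, Pimreg, Rpl39 and Rtn4ip1 with that floor and with the pseudocount. Genes at the floor also leave where all 3 arrays must exceed it, by construction. The floor at the 55th percentile was a signal of 198.3, and each gene named here as lost with it had a lactation signal below that. A higher floor or an added pseudocount shrinks the steps of low signals, also by construction. The cause of the other losses was not tested. Of 570 values of 53 named genes, 497 stayed past the threshold, 73 fell short of it and none changed sign. The thresholds of 0.3 and 1 leave every value as it was. By construction all values thus pass at 0.3, and none can change sign at either threshold. A gene that a setting dropped has no value there, so such losses are not among the 570. The 53 genes include those named for a change at 1 step only, for which only the changing step was followed. Those changing steps stayed past the threshold under every setting, so the 497 overstate how well graded genes held. No paired analysis was possible because each group has 1 array.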

Other observations

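Probe sets without a single gene symbol numbered 10216, of which 5353 were above the floor in at least 1 lactation array. Of these 56 were higher and 25 lower by 0.5 or more at both steps (1.51%), and 752 moved in opposite directions.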
